A study of Homo sapiens with 6 samples.

Results

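The genes described here are the 4 human kinases that phosphorylate the alpha subunit of translation initiation factor eIF2 (EIF2AK1, EIF2AK2, EIF2AK3 and EIF2AK4), the 2 regulatory subunits that direct protein phosphatase 1 to the same site (PPP1R15A and PPP1R15B), and 3 proteins that act on the kinases (DELE1, GCN1 and IMPACT). They were chosen by gene symbol, and all 9 were found among the 61806 genes of the table. The RNA came from MDA-MB-231, an established cell line from a human triple-negative breast cancer, in 3 control samples and 3 samples treated with Parishin B (PB). The paper, not the labels, gives the PB dose as 20 μM and the time as 24 h. PB is a phenolic compound of Gastrodia elata that the study examined as a ligand of the pseudokinase TRIB3. The labels name no vehicle for the control group and do not say whether the samples were separate cultures. The p-values below therefore rest only on spread among these samples, which may be technical. In edgeR's test that spread was pooled over all genes, not taken from each gene alone.

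Phosphorylated eIF2 blocks its own exchange factor, eIF2B, so that most translation falls while a few messages with upstream reading frames, such as that of ATF4, are translated more. Each kinase reads a different stress. EIF2AK1 (HRI) responds to lack of heme and to mitochondrial stress relayed by DELE1, EIF2AK2 (PKR) to double-stranded RNA, EIF2AK3 (PERK) to misfolded protein in the endoplasmic reticulum, and EIF2AK4 (GCN2) to amino acid shortage and stalled ribosomes. GCN1 is the activator that GCN2 needs on the ribosome, and IMPACT competes with GCN2 for GCN1. PPP1R15B (CReP) is the constitutive phosphatase subunit, and PPP1R15A (GADD34) is the inducible one that closes the feedback loop. Kinase activity and phosphorylation of eIF2 are set at the protein level and were not measured by these libraries.

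The deposited table gives for every gene a raw count and an FPKM value, the count adjusted for the exonic length of the gene and the depth of the sample. Total counts lay between 15681655 and 21986948 per sample. The counts of the 9 genes lay between 250 for EIF2AK3 in PB replicate 2 and 6406 for GCN1 in control replicate 3, so none was near the detection floor of 3 counts. Replicates differed by little more than counting noise (chi-square over its degrees of freedom, 1.45 to 1.92 within groups). The markers set for a mesenchymal-like breast line were present in both groups, with a summed level of 1248.47 to 1266.58 FPKM in the control samples and 1198.09 to 1204.08 FPKM with PB. The sum hides changes of single markers. In FPKM, 4 of these 6 were lower with PB without overlap and 2, VIM and LGALS1, were higher. Of all tested genes, 21.6% were lower and 34.1% higher in this way. In edgeR's test with TMM scaling, described below, 5 of the 6 were called lower and 0 higher, against 26.1% and 24.1% of all tested genes. There VIM was called lower (log2 fold change -0.059) and LGALS1 had no call (-0.052). CAV1 fell most, from 71.1 ± 1.01 to 34.9 ± 1.08 FPKM (SD, n = 3). The hormone receptor and luminal markers summed to at most 4.91 FPKM in any sample, with ESR1 at 0.0733 ± 0.0115 FPKM in the control group (SD, n = 3), and the immune and stromal markers to at most 1.48 FPKM, with CD3E listed at 0 in every PB sample. The 12 epithelial markers also moved with the groups. Their sum was 454.38 to 460.57 FPKM in the control samples and 160.16 to 165.67 FPKM with PB. Of the 12, 8 were lower with PB without overlap and 1 was higher, beside 21.6% and 34.1% of all tested genes. AGR2 and CEACAM6 were listed at 0 in every PB sample. A set of 113 genes reached 30 counts or more in each control library but no more than 3 in any PB library, and took 0.178% to 0.181% of the control counts. The part of these genes and of the epithelial and mesenchymal-like markers in the results below was not tested. In such bulk samples, fewer cells of a type and less RNA per cell cannot be told apart.

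Promoter sequence was shown for the 3 members in which a searched motif was found, because the promoter is where the transcription factors of this response and of interferon signaling would act. Of the 9 genes, 8 had an entry in the RefSeq promoter table (build GRCh38.p14), and EIF2AK1 had none. The motifs, searched on both strands, were the cyclic AMP response element (CRE, TGACGTCA), the core of the C/EBP-ATF response element bound by ATF4 (CARE, TGATGNAA), the core of the interferon-stimulated response element (ISRE, GAAA repeated after a gap of 2 bases) and the endoplasmic reticulum stress element (ERSE, CCAAT and CCACG with 9 bases between them). Capitals mark the matches, which did not overlap each other. The first 2 sequences hold the 250 bases before the RefSeq start of the gene, at chr19:48872171-48872420 on the plus strand for PPP1R15A and at chr1:204411818-204412067 on the minus strand for PPP1R15B. The third holds 70 bases around the start of EIF2AK2, at chr2:37156961-37157030 on the minus strand.
PPP1R15A: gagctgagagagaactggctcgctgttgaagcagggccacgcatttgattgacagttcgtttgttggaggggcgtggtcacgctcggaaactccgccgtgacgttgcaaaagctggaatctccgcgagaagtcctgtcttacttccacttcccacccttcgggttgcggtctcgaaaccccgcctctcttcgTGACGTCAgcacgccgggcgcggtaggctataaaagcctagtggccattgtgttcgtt
PPP1R15B: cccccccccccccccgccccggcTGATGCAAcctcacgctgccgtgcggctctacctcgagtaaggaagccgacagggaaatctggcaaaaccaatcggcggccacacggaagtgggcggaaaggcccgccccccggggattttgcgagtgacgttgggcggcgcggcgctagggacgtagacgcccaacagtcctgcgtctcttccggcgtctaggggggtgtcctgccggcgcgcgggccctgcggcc
EIF2AK2: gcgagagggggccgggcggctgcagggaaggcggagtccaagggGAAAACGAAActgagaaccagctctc
The CRE of PPP1R15A began at position -58 from the start, the CARE core of PPP1R15B at position -227 and the ISRE core of EIF2AK2 at position -6. Among all 35116 promoters of the table, 1.85% held the CRE, 3.62% the CARE core, 3.57% the ISRE core and 0.0769% the ERSE, which was found in none of the 8. These matches describe the letters of the windows and not the binding of a factor.

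PPP1R15A rose strongly with PB, 5 further genes changed by at most 0.58 on the log2 scale in either direction, and EIF2AK3, EIF2AK4 and DELE1 had no call. In edgeR's quasi-likelihood test with TMM scaling over 24200 tested genes, 6 of the 9 passed an adjusted p of 0.05, of which 3 were higher with PB (PPP1R15A, IMPACT and PPP1R15B) and 3 were lower (GCN1, EIF2AK2 and EIF2AK1). The share of all tested genes called in this way was 50.2%, with 24.1% higher and 26.1% lower, so a count of 6 in 9 is close to what genes in general showed. Only PPP1R15A also had a log2 fold change of at least 1, a line that 5.36% of all tested genes passed upward and 6.73% downward. In FPKM, the groups did not overlap for 8 of the 9 genes, 5 higher and 3 lower with PB, against 55.6% of all tested genes, 34.1% higher and 21.6% lower. The exception was EIF2AK3.

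**Figure D1:**
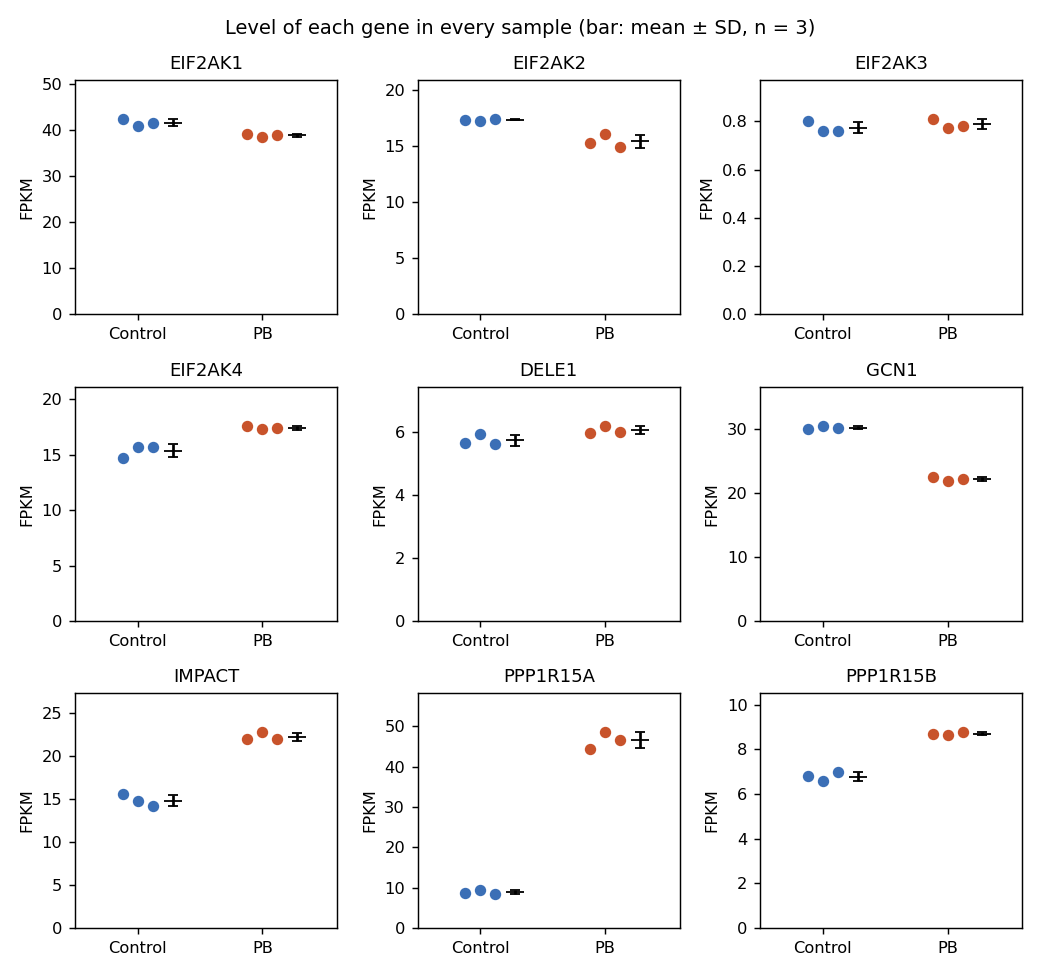
FPKM (vertical axis of each panel, starting at 0) of the 9 genes in the 3 control samples (blue) and the 3 PB samples (orange), with the mean and SD of each group as a black bar. PPP1R15A lies between 8.44 and 9.37 FPKM in the control samples and between 44.49 and 48.52 FPKM with PB, while EIF2AK3 lies between 0.76 and 0.81 FPKM in all 6 samples.

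The scaling of the libraries decided how the smallest of these differences were read. The TMM factors were 0.949 to 0.962 for control and 1.04 to 1.05 for PB libraries. With library size alone, the scale of the deposited FPKM values, the median over the tested genes moved from 0.011 to 0.14 on the log2 scale, and of the calls at an adjusted p of at most 0.05, 61.1% were higher with PB in place of 48.0%. Genes with the additional log2 fold change of 1 were 57.5% higher in place of 44.3%. The 6 calls named above kept their direction under both scalings.

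The phosphatase subunits are taken first, because they held the largest difference. PPP1R15A, the stress-inducible subunit GADD34, lies on chromosome 19 from 48872421 to 48876058 on the plus strand (identifier ENSG00000087074, build hg38 per the submitters' notes). It had 8.68, 9.37 and 8.44 FPKM in control replicates 1, 2 and 3, and 44.49, 48.52 and 46.69 FPKM in PB replicates 1, 2 and 3. Every PB sample was thus far above every control sample, and no other gene overlaps it in the table. The mean rose from 8.83 ± 0.483 to 46.6 ± 2.02 FPKM (SD, n = 3), a 4.82-fold increase after TMM scaling. The log2 fold change was 2.27 (standard error 0.044, 95% confidence interval 2.18 to 2.36), with a log10 adjusted p of -571 in edgeR's quasi-likelihood test. That test pooled the spread over all genes, and limma with trend gave PPP1R15A an adjusted p of 3.36e-07. Of the 24200 tested genes, 466 had a larger log2 fold change.

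PPP1R15B, the constitutive subunit CReP, lies on chromosome 1 from 204396492 to 204411887 on the minus strand (ENSG00000158615). It had 6.78, 6.57 and 6.97 FPKM in the control samples and 8.69, 8.64 and 8.75 FPKM with PB, and the groups did not overlap. The increase was much smaller than that of PPP1R15A, with a log2 fold change of 0.23 (standard error 0.041, adjusted p = 1.77e-07 in edgeR's test). A pair of antisense genes overlap PPP1R15B and held at most 6 counts in any sample.

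The balance of both subunits does not depend on the scaling of the libraries, since it is a ratio within each sample. In the control samples PPP1R15A stood at 1.28, 1.43 and 1.21 times PPP1R15B in FPKM, With PB it stood at 5.12, 5.62 and 5.34 times PPP1R15B. Per kilobase of principal transcript (GENCODE 29), which is shorter than the deposited exonic length, the mean ratio was 0.943 in the control group and 3.87 with PB. The ratio rose 4.11-fold, a difference of 2.04 on the log2 scale, and the groups did not overlap. By exact two-sided permutation of the samples p was 0.1, below which a design of 3 against 3 cannot go.

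Protein phosphatase 1 supplies the catalytic subunit to which both proteins bind, and 2 of its 3 genes were lower with PB. PPP1CC had 52.2 ± 1.02 FPKM in control samples against 28.8 ± 0.0351 (SD, n = 3), and fell by 0.99 on the log2 scale (adjusted p = 1.85e-292, edgeR). PPP1CA was lower by a log2 fold change of -0.23 (adjusted p = 4.34e-10, edgeR), although its FPKM values overlapped between the groups. PPP1CB had a log2 fold change of -0.029 and no call with TMM (adjusted p = 0.410, edgeR), and with library size alone it was higher, at 0.10 with an adjusted p of 0.000337 in the same test. The list had a median log2 fold change of -0.23. With TMM, 50.2% of all tested genes were called, 26.1% lower and 24.1% higher, so a count of 2 in 3 genes says little about this list.

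Among the kinases, EIF2AK1 (HRI) had the highest level per length, on chromosome 7 from 6022247 to 6059175 on the minus strand (ENSG00000086232). Its values were 42.42, 40.85 and 41.42 FPKM in the control samples and 39.18, 38.44 and 38.87 FPKM with PB. All PB values were below all control values, by an amount close to the distance between the samples of 1 group. The log2 fold change was -0.23 (standard error 0.028, adjusted p = 1.42e-15 in edgeR's test) with TMM and -0.098 (adjusted p = 0.000857) with library size alone. EIF2AK1 overlaps AIMP2, which held 348 to 664 counts, on the other strand by 1588 bases and contains ANKRD61, which held at most 57 counts. Because it is not stated whether counting used the strand, the reads in these stretches are uncertain.

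DELE1, the mitochondrial protein that activates HRI once it reaches the cytosol, lies on chromosome 5 from 141923855 to 141942047 (ENSG00000081791). It had 5.65, 5.94 and 5.64 FPKM in the control samples and 5.99, 6.21 and 6.00 FPKM with PB. The lowest PB value lay just above the highest control value, and the test made no call. Its log2 fold change was -0.054 (95% confidence interval -0.16 to 0.056, adjusted p = 0.460 in edgeR's test), and the sign turned with library size alone, to 0.079 (adjusted p = 0.245). OMA1, the mitochondrial protease that cleaves DELE1, was lower with PB, at 5.82 ± 0.118 FPKM against 6.76 ± 0.356 (SD, n = 3), with a log2 fold change of -0.34 (adjusted p = 2.52e-06, edgeR).

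EIF2AK2 (PKR) lies on chromosome 2 from 37099210 to 37157522 on the minus strand (ENSG00000055332). Its values were 17.38, 17.30 and 17.45 FPKM in the control samples and 15.30, 16.06 and 14.97 FPKM with PB. The control samples were nearly identical and the PB samples spread more widely, all of them below. The difference on the log2 scale was -0.30 (standard error 0.030, adjusted p = 1.52e-23 in edgeR's test). PRKRA, an activator of PKR, and TARBP2 and ADAR, which bind or edit double-stranded RNA and restrain it, had log2 fold changes of 0.054, 0.089 and -0.038 with no call under TMM. With library size alone all 3 were called as higher, with log2 fold changes between 0.095 for ADAR and 0.22 for TARBP2.

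PKR is itself an interferon-stimulated gene, with the ISRE core printed above at its start, so the other genes of that class were listed beside it. Of 25 listed genes, 20 were tested, of which 9 were higher and 7 were lower with PB, and the median log2 fold change was 0.028. Among all tested genes, 24.1% were called higher and 26.1% lower. The largest decreases were of the antiviral oligoadenylate synthetase genes OAS1, from 0.317 ± 0.0321 to 0.00667 ± 0.00577 FPKM, and OAS3, from 2.10 ± 0.0964 to 0.543 ± 0.0757 FPKM (SD, n = 3). OAS1 had 59, 74 and 97 counts in the control samples and 3, 1 and 3 with PB. It is thus 1 of the 113 genes above that were counted almost only in control libraries, and its PB values were at the floor. IFIT2, an RNA-binding antiviral protein, rose by 0.91 on the log2 scale, and STAT2, a transcription factor of the pathway, by 0.78. MX1, OAS2, IFI44L, RSAD2 and XAF1 were below the level tested. PKR therefore moved by less than many genes of its class, and the class moved both ways.

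EIF2AK3 (PERK) lies on chromosome 2 from 88556741 to 88691518 on the minus strand (ENSG00000172071). It had 0.80, 0.76 and 0.76 FPKM in the control samples and 0.81, 0.77 and 0.78 FPKM with PB, from 250 to 347 counts, and the groups overlapped. The log2 fold change was -0.10 (95% confidence interval -0.27 to 0.058, adjusted p = 0.311 in edgeR's test), and 0.029 with library size alone. PERK mRNA was thus the only member with overlapping groups, at a depth where the interval reached from a fall of 0.27 to a rise of 0.058 on the log2 scale. EIF2AK3-DT, a divergent transcript that overlaps the gene on the other strand, held 45 to 67 counts.

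PERK responds to the endoplasmic reticulum, and the genes of the unfolded protein response moved both ways. Of 20 listed genes, 9 were higher and 11 were lower with PB, with a median log2 fold change of -0.19. The shares over all tested genes were 24.1% higher and 26.1% lower. HSPA5, the chaperone BiP that binds PERK, had 80.6 ± 0.136 FPKM in control samples against 194.3 ± 2.59 (SD, n = 3), and rose by 1.14 on the log2 scale. HERPUD1, a degradation factor, rose most, from 4.67 ± 0.291 to 15.5 ± 0.681 FPKM (SD, n = 3). The sensor ERN1 rose from 1.23 ± 0.0404 to 3.83 ± 0.187 FPKM (SD, n = 3), and the sensor ATF6 by 0.84 on the log2 scale. SDF2L1 fell most, with a log2 fold change of -1.32, and the folding enzymes PDIA4, PDIA6 and HSP90B1 fell by 1.05, 0.70 and 0.74. DNAJC3, the co-chaperone that inhibits PERK and PKR, had a log2 fold change of -0.17 (adjusted p = 0.00560, edgeR) with overlapping FPKM values, and with library size alone it had no call (-0.039, adjusted p = 0.602 in the same test). PERK itself was not called, and its difference from ERN1 and ATF6 was not tested.

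EIF2AK4 (GCN2) lies on chromosome 15 from 39934115 to 40035591 on the plus strand (ENSG00000128829). Its values were 14.72, 15.67 and 15.74 FPKM in the control samples and 17.63, 17.29 and 17.38 FPKM with PB, so all PB values were higher. Whether this was a change depended on the scaling. With TMM the log2 fold change was 0.046 (standard error 0.029, adjusted p = 0.185 in edgeR's test), and with library size alone it was 0.18 (adjusted p = 8.21e-10). Measured against EIF2AK1 in the same sample, which needs no scaling, EIF2AK4 stood at 0.347, 0.384 and 0.380 in the control samples and at 0.450, 0.450 and 0.447 with PB. Per kilobase of principal transcript the means were 0.657 and 0.797. The ratio rose 1.21-fold (p = 0.1 by exact permutation, again the lowest possible). This ratio and those that follow were chosen after the values were seen.

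The partners of GCN2 moved in opposite directions. GCN1, the large ribosome-bound activator, lies on chromosome 12 from 120127202 to 120194715 on the minus strand (ENSG00000089154). It had 29.87, 30.46 and 30.16 FPKM in the control samples and 22.52, 21.78 and 22.09 FPKM with PB, a wide gap beside the spread of each group. On the log2 scale the change was -0.58 (standard error 0.027, adjusted p = 1.39e-98 in edgeR's test). IMPACT, the competitor that restrains GCN2, lies on chromosome 18 from 24426634 to 24453531 (ENSG00000154059). It had 15.56, 14.76 and 14.22 FPKM in the control samples and 21.97, 22.79 and 21.99 FPKM with PB, again without overlap. On the log2 scale it rose by 0.45 (standard error 0.038, adjusted p = 7.15e-32 in edgeR's test).

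As a ratio within each sample, IMPACT stood at 0.521, 0.485 and 0.471 of GCN1 in the control samples and at 0.976, 1.05 and 0.995 with PB. This was a 2.04-fold rise of the ratio, from a mean of 0.492 to 1.01 with the deposited lengths and from 0.571 to 1.17 per kilobase of principal transcript. GCN1 stood at 2.03, 1.94 and 1.92 times EIF2AK4 in the control samples and at 1.28, 1.26 and 1.27 times with PB, a ratio 0.647 of that before. Per kilobase of principal transcript the same ratio went from 1.00 ± 0.0302 to 0.648 ± 0.00444 (SD, n = 3), so whether GCN1 stood above EIF2AK4 depended on the length used. DELE1 over EIF2AK1 moved least, 1.13-fold, with 0.138 ± 0.00637 in the control group and 0.156 ± 0.00464 with PB (SD, n = 3) with the deposited lengths, and means of 0.306 and 0.346 with the shortest principal transcripts. For each of these 3 ratios the groups did not overlap, and exact permutation gave the same p = 0.1. Over the 5 ratios examined, the Benjamini-Hochberg adjusted values were also 0.1.

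**Figure D2:**
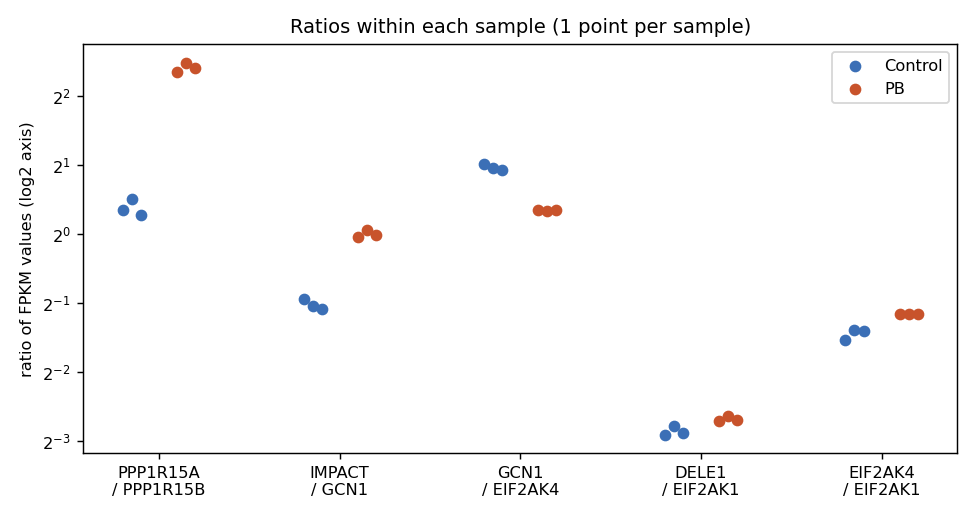
Ratio of deposited FPKM values of 2 genes within each sample (vertical log2 axis), with 1 point for each of the 3 control (blue) and 3 PB (orange) samples. PPP1R15A over PPP1R15B rises from 1.31 to 5.36 and IMPACT over GCN1 from 0.492 to 1.01 (means of 3 samples), while GCN1 over EIF2AK4 falls from 1.96 to 1.27.

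GCN2 activity has also been linked to the ribosomal stalk and to the ribosome-collision kinase MAP3K20 (ZAK), and their genes were listed among the kinase regulators. RPLP0 and RPLP1 of the stalk were higher with PB, with log2 fold changes of 0.27 and 0.14, and RPLP2 was lower with TMM, at -0.15, but had no call with library size alone (-0.018, adjusted p = 0.652 in edgeR's test). MAP3K20 had 6.66 ± 0.300 FPKM in control samples against 5.33 ± 0.0651 (SD, n = 3), and fell by 0.46 on the log2 scale (adjusted p = 1.18e-30, edgeR). In all, the list of 11 kinase regulators had 3 genes higher, 5 lower and a median log2 fold change of -0.038 with TMM, and 6 higher and 2 lower with library size alone. With TMM, 24.1% of all tested genes were called higher and 26.1% lower. Under library size alone, 7679 of the 24200 tested genes were called higher and 4879 lower. YME1L1, a mitochondrial protease, was called as lower with TMM (-0.10) and had no call and the other sign with library size alone (0.033).

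**Figure D3:**
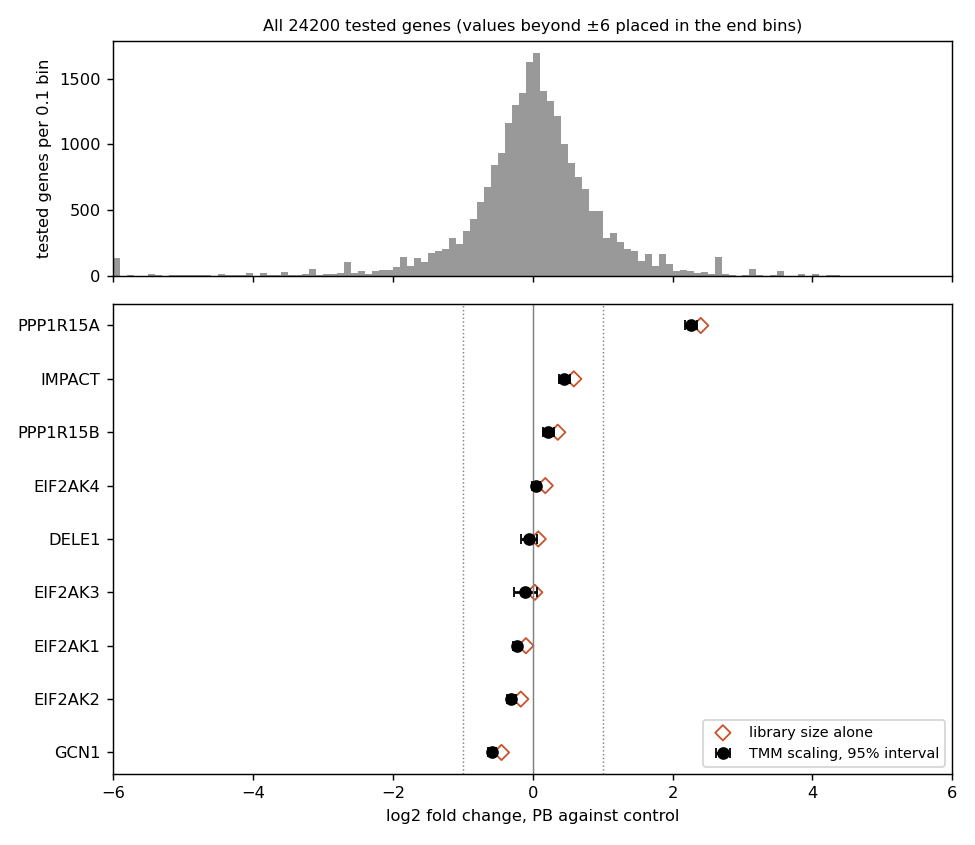
The lower panel gives the log2 fold change of each gene with TMM scaling (black points, with 95% confidence intervals) and with library size alone (open diamonds), and the upper panel the number of all tested genes in bins of 0.1. PPP1R15A, at 2.27, lies beyond the dotted line at 1, while the other 8 genes lie between -0.58 and 0.45 with TMM, and DELE1 and EIF2AK3 change sign between the scalings.

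With the deposited exonic lengths, the 4 kinases together were lower with PB, by an amount that depended on the scaling. Their summed level was 75.32, 74.58 and 75.37 FPKM in the control samples and 72.92, 72.56 and 72.00 FPKM with PB (p = 0.1 by exact permutation), a difference of -2.60 FPKM. After TMM scaling the sum was 78.6 ± 0.958 in the control group and 69.2 ± 0.276 with PB (SD, n = 3), a difference of -9.41 with the same p by exact permutation. By share, EIF2AK1 made up 55.3% ± 0.845 of the sum in the control group and 53.6% ± 0.525 with PB, EIF2AK2 23.1% ± 0.0616 and 21.3% ± 0.726, EIF2AK4 20.5% ± 0.813 and 24.05% ± 0.191, and EIF2AK3 1.03% ± 0.0285 and 1.09% ± 0.0249 (SD, n = 3). In the control samples the order per length was therefore EIF2AK1, EIF2AK2, EIF2AK4 and EIF2AK3, with no overlap between neighbours. With PB, EIF2AK4 moved above EIF2AK2, with 17.4 ± 0.176 against 15.4 ± 0.559 FPKM (SD, n = 3).

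This order rests on the exonic lengths of the table, which take all annotated exons of a gene together. For EIF2AK3 that length is 20691 bases, 4.45 times its principal transcript in GENCODE 29 (EIF2AK3-201, 4646 bases), and for EIF2AK4 it is 11988 bases, 2.18 times EIF2AK4-201. For EIF2AK1 the factor is 1.23. EIF2AK2 has principal transcripts of 10042 and 4343 bases against 11036 in the table. Per kilobase of the longest principal transcript, EIF2AK3 stood at 3.45 ± 0.0891 in the control group, EIF2AK4 at 33.5 ± 1.24 and EIF2AK2 at 19.1 ± 0.0785 (SD, n = 3), so that EIF2AK4 came ahead of EIF2AK2 in both groups. With the shortest principal transcripts, EIF2AK2 was ahead of EIF2AK4 in the control group, at 44.2 ± 0.182, and with PB the values were 39.3 ± 1.42 and 38.0 ± 0.389 (SD, n = 3). EIF2AK1 was first and EIF2AK3 last under all 3 lengths. The change of each kinase with PB is the same fraction under any fixed length, but that of the sum is not. With the longest principal transcripts the sum was 107.1 ± 0.561 in the control group and 106.2 ± 0.732 with PB (SD, n = 3). The groups then overlapped, with p = 0.3 in the exact permutation test.

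**Figure D4:**
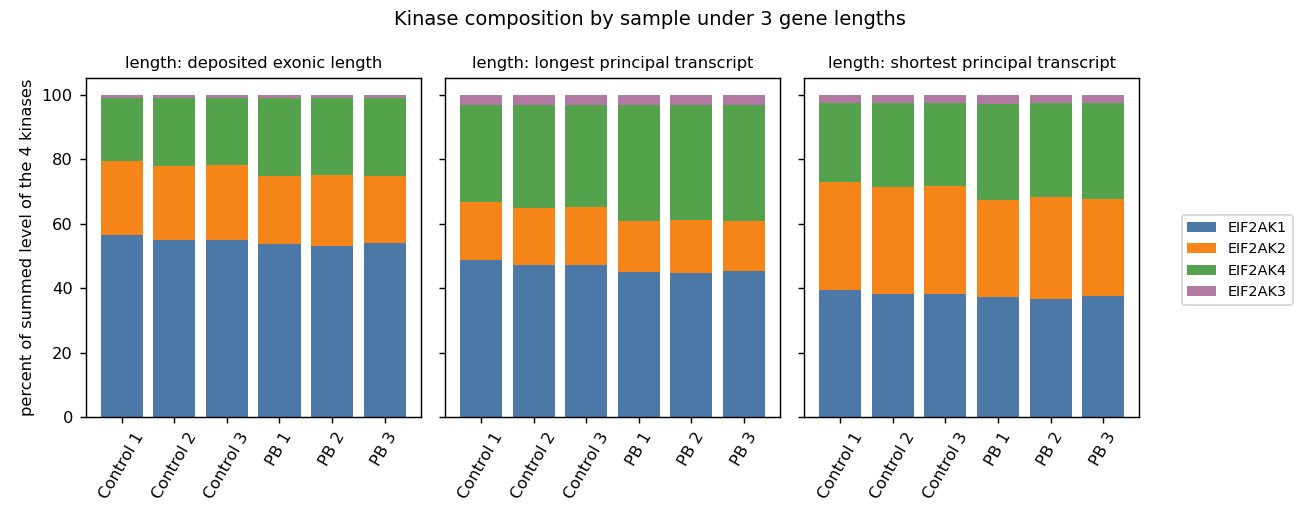
Percent of the summed level of the 4 kinases (vertical axis) taken by each kinase in every sample, with levels per kilobase of the deposited exonic length (left), the longest (middle) and the shortest principal transcript (right). EIF2AK4 takes a larger share in every PB sample under all 3 lengths, and EIF2AK3 takes 1.03% of the control mean with deposited lengths and 3.22% with the longest principal transcripts.

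The 5' untranslated regions of the principal transcripts differed in upstream AUGs, the feature through which phosphorylated eIF2 spares some messages. EIF2AK3 had 5 upstream AUGs, PPP1R15A and PPP1R15B had 2 each, EIF2AK2 and IMPACT had 1 each, and EIF2AK1, EIF2AK4, DELE1 and GCN1 had none. Among 19540 human genes with a principal transcript, 51.7% had at least 1 upstream AUG and 32.1% at least 2, so the 5 of 9 with at least 1 were near the general share. The region is 269 bases long in PPP1R15A, 380 in PPP1R15B and 13 in GCN1, beside a median of 180 bases. Ribosome occupancy was not measured in these samples.

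The substrate and its exchange factor moved unevenly. EIF2S1, the alpha subunit that the 4 kinases phosphorylate, had 76.4 ± 0.262 FPKM in control samples against 57.0 ± 0.626 (SD, n = 3), and fell by 0.55 on the log2 scale (adjusted p = 5.03e-106, edgeR). The beta and gamma subunits rose, EIF2S2 by 0.35 and EIF2S3 by 0.49 on the log2 scale. Of the 5 subunits of eIF2B, EIF2B3 fell most (-0.80), from 10.2 ± 0.429 to 6.39 ± 0.150 FPKM (SD, n = 3), EIF2B1 and EIF2B2 fell by 0.31 and 0.24, and EIF2B4 and EIF2B5 had no call (adjusted p = 0.0508 and 0.178, edgeR). The list of 8 genes thus had 2 genes higher and 4 lower, with a median log2 fold change of -0.18. Of all tested genes, 24.1% were called higher and 26.1% lower.

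The genes that read out the response downstream rose far more than the kinases or their partners. Of 12 listed genes, 11 were higher with PB, and 10 of these had a log2 fold change of at least 1. Among all tested genes, 24.1% were called higher and 5.36% passed that line upward. The median of the list was 2.77 beside 0.011 for all tested genes. ATF4, the transcription factor at the centre of the response, had 58.9 ± 2.00 FPKM in control samples against 153.1 ± 2.79 (SD, n = 3), and rose by 1.25 on the log2 scale. DDIT3 (CHOP), which together with ATF4 activates PPP1R15A, had a log2 fold change of 4.05, and TRIB3 one of 3.53. The largest value was that of NUPR1, 4.75 (standard error 0.30). It had 5, 1 and 4 counts in the control samples, near the floor of 3, and 93, 83 and 102 with PB, so its size is uncertain. The smallest increase was that of VLDLR, 0.54. ATF5 went the other way, with a log2 fold change of -1.08. PPP1R15A, at 2.27, lay below the median of this list. The list was written with earlier results of these data known and holds TRIB3, the protein the study examined, so it is not independent evidence of its direction. All these values are of mRNA. By Western blot, the paper reports that PB did not significantly change TRIB3 protein in MDA-MB-231 cells.

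HRI is held inactive by heme, and the genes of heme synthesis and breakdown were split. Of 10 listed genes, 5 were higher and 5 lower with PB, with a median log2 fold change of 0.075. Beside this, 24.1% of all tested genes were higher and 26.1% lower. HMOX1, the stress-inducible enzyme that degrades heme, had 5.41 ± 0.628 FPKM in control samples against 12.03 ± 0.740 (SD, n = 3), and rose by 1.00 on the log2 scale. Its constitutive counterpart HMOX2 fell by 0.50. ALAS1, the first enzyme of synthesis, rose by 0.30, and FECH, the last, by 0.42, while UROD and CPOX between them fell by 0.37 and 0.35. With library size alone, 5 genes of the list were called higher and 3 lower, beside 7679 and 4879 of all 24200 tested genes.

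**Figure D5:**
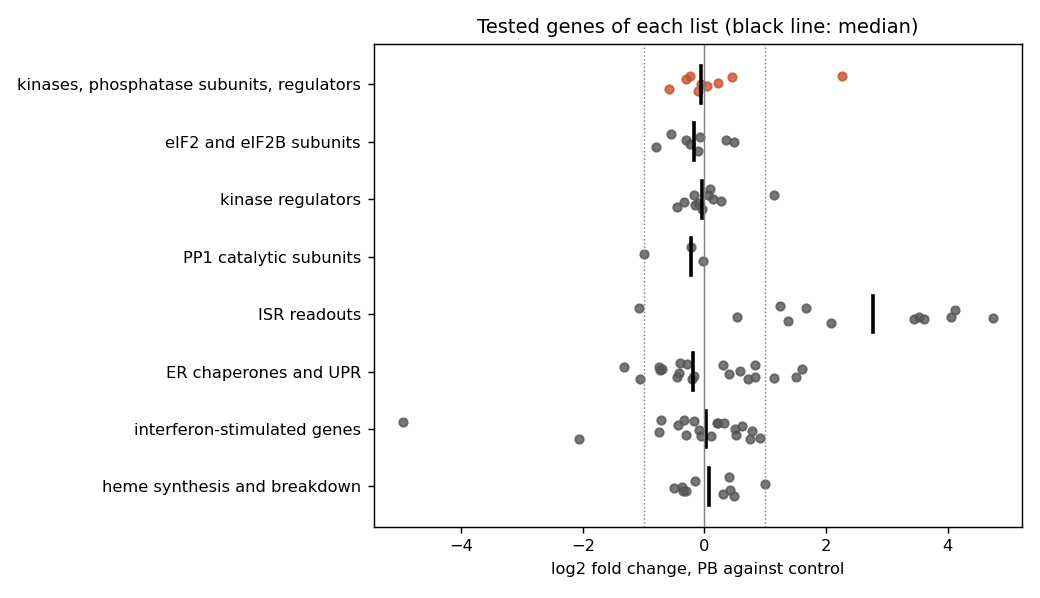
Log2 fold change of every tested gene (points, horizontal axis) in the 9 genes described here (orange) and in the 7 lists around them (grey), with the median of each list as a black line and dotted lines at -1 and 1. The median of the 12 downstream genes is 2.77, while the medians of the other lists lie between -0.23 and 0.075.

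The genes most like each called member were named by distance, over 6 samples, between centred log2 CPM values among 13533 genes with a mean of at least 1 FPKM. For PPP1R15A these were CCND2 and NEAT1, with log2 fold changes of 2.29 and 2.26, at distances of 0.140 and 0.149. For GCN1 they were MT-ND5 and NUP98, at distances of 0.0212 and 0.0220, and for EIF2AK1 they were ABCF1 and GPBP1, at 0.0222 and 0.0235. PKP2 and SELENOF were nearest to EIF2AK2 (0.0256 and 0.0421), ZFYVE1 and RAB31 to PPP1R15B (0.0321 and 0.0413), and PHF20L1 and ENSG00000270659, which has no symbol, to IMPACT (0.0427 and 0.0469). With 2 groups of 3 samples, nearness mostly reflects the same fold change.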

How the data were processed

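RNA of 3 control and 3 PB samples was poly(A)-selected and sequenced in pairs on an Illumina instrument (NovaSeq per the labels, HiSeq per the paper). The submitters' processing notes name HTSeq 0.6.1, Cufflinks 2.2.1, DESeq2 and build hg38. The aligner and the strand setting are not given in the sources used here. The authors deposited raw counts per gene, used as deposited, and FPKM values, of which 100% matched the count scaled by exonic length and total count within rounding. Columns without a matching sample numbered 0.

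All genes whose mean reached 0.1 FPKM were tested (24200) with edgeR 4.0.16 in R 4.3.3, by TMM and the quasi-likelihood test with Benjamini-Hochberg adjustment. The standard error is the log2 fold change over the square root of the F statistic. The study used DESeq2. Single values were tested by exact permutation over samples (scipy 1.17.1). In simulated counts for this comparison over 24200 genes, edgeR recovered 93 of 100 genes changed by 1.5 on the log2 scale and 76 of 100 changed by 0.5. It called 5 of 24000 unchanged genes. The changed genes were few, equally up and down, and all had a mean of at least 1 FPKM. In the real samples 50.2% of tested genes were called and the TMM factors differed by group. The 5 calls are thus no false-call rate for the real comparison.

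The members and all lists were chosen with earlier results of these data known. Genes named are the members, the largest, smallest and opposed members of each list, and the 2 genes nearest to each called member. Other list members were added as examples after their values were seen. Alternatives were DESeq2 1.42.0, limma 3.58.1 with trend on log2(FPKM + 0.1), library size alone, scaling without genes counted only in control samples, no filter, a minimum mean of 1 FPKM, log2 fold change lines of 0.5 and 2, the replicate number as a block, and each sample left out in turn. Principal transcript lengths were added after the data were examined.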

Additional observations from a re-analysis of the deposited data

How the results depend on the processing

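The number of members with an adjusted p of at most 0.05 lay between 6 and 7 under every alternative, and PPP1R15A was called with a log2 fold change of 2.23 to 2.40 in all of them. With a log2 fold change line of 0.5 in place of 1, 2 members passed, since GCN1 joined. The sign turned for EIF2AK3 (0.029 with library size alone, 0.022 with limma) and DELE1 (0.079 and 0.078), both without a call, and EIF2AK4 (0.046) was called with library size alone, limma and a minimum mean of 1 FPKM, where EIF2AK3 was not tested. In edgeR's test PPP1R15A had an adjusted p of 3.22e-41 under that minimum and 1.34e-33 when PB replicate 3 was left out, far less extreme than otherwise. GCN1 went from 1.39e-98 to 3.33e-21 without PB replicate 3 in the same test, with standard errors of 0.0273 and 0.0284. The main fit had infinite prior degrees of freedom, which were not recorded for these other fits, and the cause was not tested. Genes past both lines numbered 1377 under the same minimum, from fewer genes tested, against 2925. Without one sample each, the PPP1R15A to PPP1R15B difference ranged from 1.99 to 2.10 on the log2 scale and the kinase sum difference from -2.85 to -2.35 FPKM. The kinase sum difference was -9.41 with TMM-scaled FPKM and -3.71 with the shortest principal transcripts, and -0.928 with the longest. The replicate block gave 6 called members, with a log2 fold change of 2.27 for PPP1R15A, and changed no call. Same-numbered samples did not deviate together (correlations of -0.029, 0.043 and -0.029), and control replicate 3 with PB replicate 1 gave 0.067. No shared effect of same-numbered samples was thus seen. Whether they were prepared together cannot be told from this, since the replicates differed by little more than counting noise. Among members, EIF2AK3 had the fewest counts and the widest interval.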
